A study of Arabidopsis thaliana with 12 samples.

Results

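SAUR (small auxin up RNA) genes form a large gene family of land plants, and their short transcripts rise within minutes when auxin is given to elongating tissue. In Arabidopsis, SAUR proteins of the SAUR19 and SAUR63 subfamilies bind and inhibit PP2C.D phosphatases, which otherwise dephosphorylate and switch off the plasma membrane proton pumps. The active pumps acidify the cell wall and drive cell expansion, so these SAUR genes are known as positive regulators of hypocotyl, stamen and leaf growth. Not all members follow auxin: some answer to light, abscisic acid, ethylene or brassinosteroid.

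The genes described here are all Arabidopsis loci named SAUR followed only by a number. Of 80 such loci in the RefSeq gene table (assembly TAIR10.1), 16 carry the name as their main symbol and 64 only among their synonyms. The probe gene table listed a probe for 65 loci, and 61 passed a filter on dim probes and were tested, among 26794 genes or unnamed probes tested in all. Only 2 of the tested genes, SAUR15 and SAUR68, carry the name as the main RefSeq symbol. Both were lower under salt in both genotypes and neither differed between genotypes by the test, so their values are given separately from those of the wider family below. The 4 genes with a probe that did not pass the filter were SAUR2, SAUR18, SAUR39 and SAUR45. The 15 loci without a listed probe, which include SAUR63, SAUR75, SAUR9, SAUR36, 5 loci of the SAUR19 group and 4 of the SAUR26 group, were not analysed here. The tested SAUR21 is AT5G18030, one of the SAUR19 group. AT1G29490 shares the synonym SAUR68 with AT1G29510 and is called by its locus here.

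The samples were whole Arabidopsis thaliana seedlings in 4 groups of 3, each read on its own one-colour array (12 in all). The groups were a transformant, SvGRP, at 150 mM NaCl, SvGRP at 0 mM, the wild type Col-0 (WT) at 150 mM, and WT at 0 mM. SvGRP expresses a glycine-rich RNA-binding protein taken from a salt-tolerant grass, Sporobolus virginicus (S. virginics in the labels), and its promoter and number of lines are not given in the sources used here. In all groups seeds germinated for 5 days without added salt, and the seedlings then spent 24 h on plates with 0 or 150 mM NaCl and were harvested at an age of 6 days. The comparisons ask how salt changed the SAUR genes in each genotype and how the genotypes differed at each NaCl level. The labels do not say that replicates were grown separately, so the p-values speak only for the scatter of these samples, part of which may be technical.

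A level below is the log2 of a probe's processed signal relative to the 75th percentile of its array, and a change is the difference of 2 group means of it. Levels of different genes are not compared, because each probe has its own brightness. A gene is called higher or lower at a Benjamini-Hochberg adjusted p under 0.05 over all 26794 genes in limma's moderated test. The 75th percentile of signal ran from 3641 to 5676 per array, the 20th percentile from 14.1 to 27.6, and arrays of a group correlated at 0.990 to 0.997. The arrays came from 3 slides: slide 1 held the 3 WT arrays at 0 mM and WT replicate 1 at 150 mM, slide 2 held the other WT arrays at 150 mM and SvGRP replicates 1 and 2 at 0 mM, and slide 3 held SvGRP replicate 3 at 0 mM and the 3 SvGRP arrays at 150 mM. At a given NaCl level the genotypes never shared a slide. Values with slide in the fit are therefore given beside many of the results, and for each salt response they equal the difference within a single slide. In whole seedlings, fewer cells of a type and less RNA per cell cannot be told apart. Near-identical neighbouring SAUR genes may share signal on a probe, so differences between close copies are uncertain.

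In both genotypes salt lowered more SAUR genes than it raised. In SvGRP, 37 of the 61 genes were called lower and 10 higher, against a background of 37.8% lower and 31.0% higher (68.8% in either direction) over all genes tested. In WT, 31 were called lower and 12 higher, against a background of 30.2% lower and 33.1% higher (63.2% in either). The family's shares were 60.7% lower and 16.4% higher in SvGRP, and 50.8% lower and 19.7% higher in WT. The median change was -0.78 in SvGRP, beside -0.07 over all genes, and -0.46 in WT, beside 0.04 over all genes. With slide in the fit the counts were 33 lower and 10 higher in SvGRP, and 30 lower and 8 higher in WT. Over the 50 genes above the dim limit on all 12 arrays, 31 were lower and 8 higher in SvGRP, and 26 lower and 11 higher in WT. Scaling to spike-in probes moved the WT median to -0.03, with the median of all genes at 0.46 under that scaling, and gave 24 lower and 20 higher genes in WT.

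The direction was shared between the genotypes, whose salt changes have no array in common. Their calls are not independent, because the scatter of each gene was pooled over all 12 arrays. Both comparisons called 30 genes lower and 9 higher, and no gene was called in opposite directions. Opposite calls were rare over all genes too, at 280 of 26794. The 30 shared falls were 30 of 37 in SvGRP and 30 of 31 in WT, and 49.2% of the family against 26.5% of all genes tested. The 9 shared rises were 14.8% of the family against 25.6% of all genes. Across the 61 genes the changes in SvGRP and WT correlated with r = 0.868 and rho = 0.91, as a description over genes that share the same arrays, while all genes gave 0.826 and 0.773. SvGRP replicate 1 at 150 mM lay nearest to the 0 mM group among its 3 replicates in 30 of the 37 genes that fell in SvGRP, and in 7 of the 10 that rose. In WT at 150 mM it was replicate 1, on slide 1 with the 0 mM arrays, that lay farthest from them in 27 of the 31 genes that fell.

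**Figure D1:**
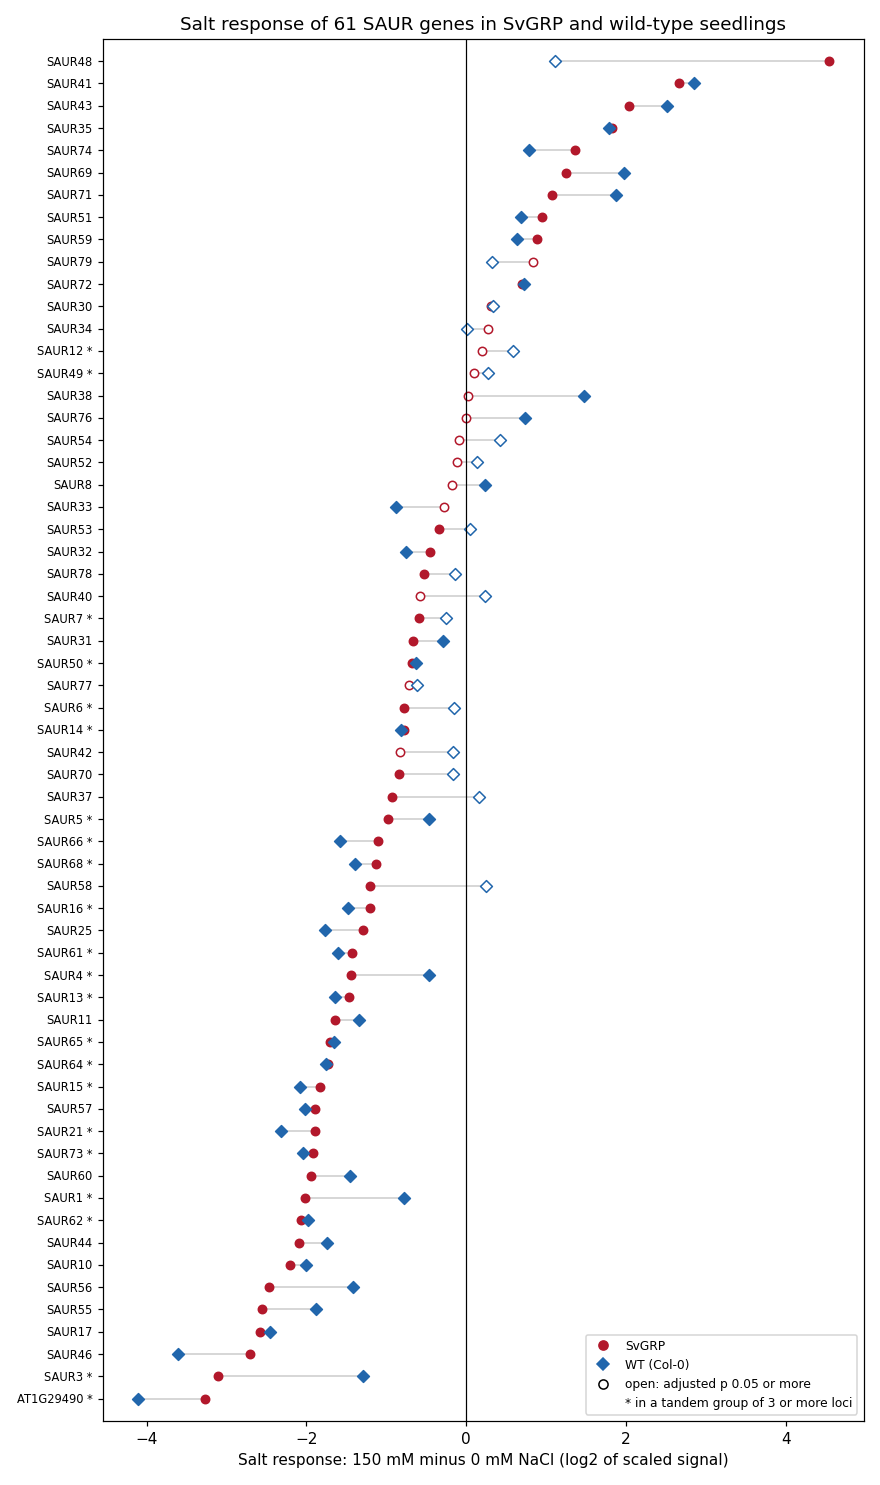
Change under salt (150 mM minus 0 mM NaCl, log2 of scaled signal, horizontal axis) of each of the 61 SAUR genes (vertical axis, ordered by the change in SvGRP), with red circles for SvGRP, blue diamonds for WT, open symbols for changes that were not called and stars for genes in tandem groups. Most pairs of symbols lie close together and left of 0, SAUR48 and SAUR3 have the widest gaps among called interactions, and no gene is called in opposite directions.

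SAUR genes often lie side by side in the genome, and the genes in such tandem groups were mostly lower under salt. Groups were taken as 3 or more SAUR loci with at most 3 other genes between neighbours. Of the 22 tested genes in groups, 20 were lower in SvGRP and 18 in WT under salt and 0 were higher in either, with median changes of -1.43 and -1.44. Of the 39 others, 17 were lower and 10 higher in SvGRP (median -0.35), and 13 were lower and 12 higher in WT (median 0.13). All genes called higher under salt in either genotype lay outside the groups, and the difference between the 2 sets was not tested. Not every group fell in both genotypes. In the chromosome 2 group of SAUR7, SAUR6 and SAUR12, 2 of 3 genes were lower in SvGRP and 0 in WT, with medians of -0.60 and -0.15. Its SAUR12 was at 0.20 in SvGRP and 0.59 in WT and was called in neither.

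The largest group lies on chromosome 1 and holds the SAUR63 subfamily, whose members promote elongation of hypocotyls and stamen filaments. It comprises 8 loci, SAUR61, SAUR62, SAUR63, SAUR64, SAUR65, AT1G29490, SAUR66 and SAUR68, of which 7 were tested. All 7 were lower under salt in both genotypes, with median changes of -1.71 in SvGRP and -1.66 in WT, and -1.77 and -1.89 with slide in the fit.

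AT1G29490 was among the genes with the largest falls, on a probe that was dim under salt. Its level was -6.39, -7.69 and -7.83 in SvGRP at 150 mM, against -3.82, -4.27 and -4.01 in SvGRP at 0 mM, a change of -3.27 ± 0.35 (SE, adjusted p = 2.04e-05), or at least 9.59-fold lower, since 1 of the SvGRP arrays at 150 mM was below the dim limit, the 20th percentile of its array. In WT it was -8.86, -8.06 and -8.39 at 150 mM, against -4.48, -4.19 and -4.31 at 0 mM. The salt and control arrays did not overlap in either genotype. The 3 WT arrays at 150 mM were below the 20th percentile of their arrays, so the gene was at least 9.58-fold lower there (fitted change -4.11, adjusted p = 8.58e-06). A second probe for this locus gave -2.50 in SvGRP and -0.69 in WT (adjusted p = 0.051), so its fall in WT rests on the brighter probe. The salt response in SvGRP minus that in WT was -1.81 on the second probe (adjusted p = 0.027). It was 0.84 on the brighter probe and was not called. At 0 mM the second probe was higher in SvGRP than in WT by 0.99 (adjusted p = 0.031). The brighter probe gave 0.29 there and was not called.

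SAUR62, known in Arabidopsis for a role in pollen tube growth, was at -2.84, -3.74 and -4.15 in SvGRP at 150 mM, against -1.51, -1.60 and -1.39 in SvGRP at 0 mM. In WT it was at -3.92, -3.58 and -3.68 at 150 mM, against -1.58, -1.72 and -1.92 at 0 mM. It was 4.21-fold lower in SvGRP and 3.96-fold lower in WT, with no overlap between salt and control arrays. The changes of SAUR61, SAUR64, SAUR65 and SAUR66 ran from -1.73 to -1.10 in SvGRP and from -1.76 to -1.58 in WT.

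SAUR68 was the mildest of the group in WT. It lay at 0.20, -0.32 and -0.86 in SvGRP at 150 mM, against 0.80, 0.71 and 0.91 in SvGRP at 0 mM. In WT it lay at -0.84, -0.56 and -0.49 at 150 mM, against 0.84, 0.62 and 0.84 at 0 mM. The change was -1.13 ± 0.22 in SvGRP (adjusted p = 0.00108) and -1.40 ± 0.22 in WT (adjusted p = 0.000355). Replicate 1 was the highest of the SvGRP arrays at 150 mM for SAUR68 as for the other 6 genes of the group, and the spread of SvGRP at 150 mM was the widest of the 4 groups for each of the 7.

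**Figure D2:**
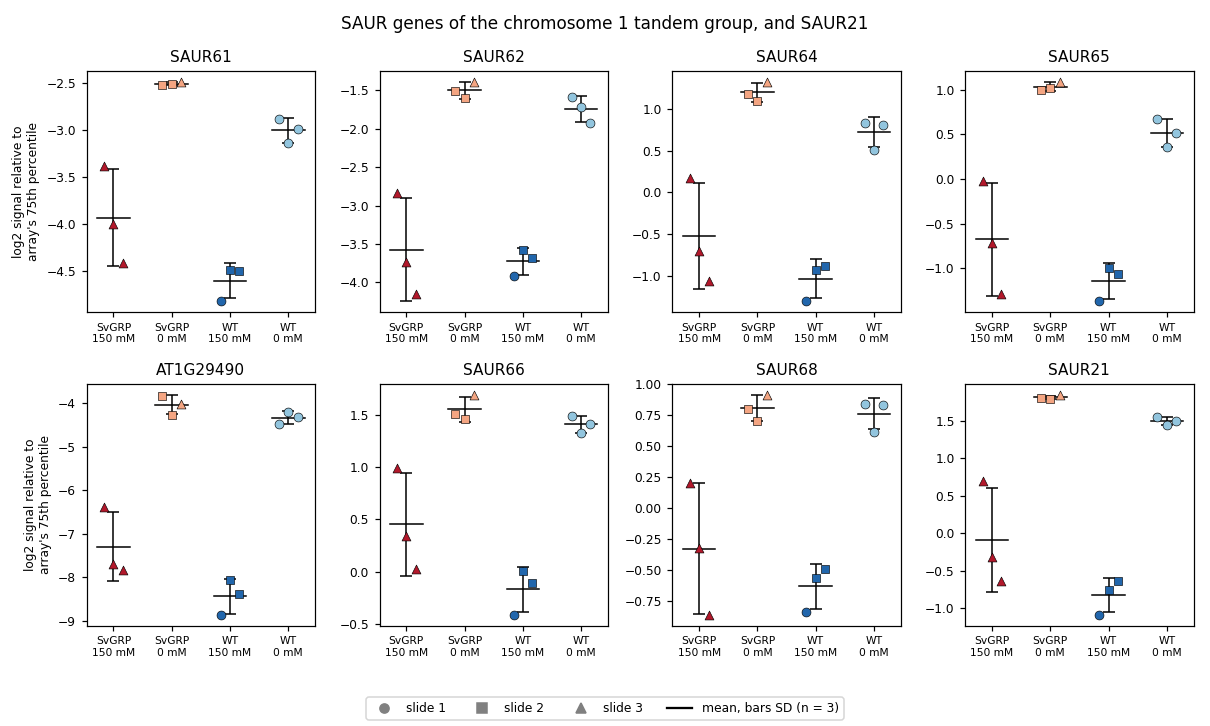
Level (log2 signal relative to the array's 75th percentile, vertical axes with their own ranges) of the 7 tested genes of the chromosome 1 group and of SAUR21, in SvGRP at 150 and 0 mM and WT at 150 and 0 mM NaCl. Points are arrays, shapes are slides, and lines with bars are means and SD (n = 3): all 8 genes are lower at 150 mM than at 0 mM in both genotypes, without overlap.

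SAUR21 stands for the SAUR19 group on chromosome 5, the best-studied inhibitors of PP2C.D phosphatases, of whose 6 loci it was the single one tested. Its level was 0.69, -0.32 and -0.63 in SvGRP at 150 mM, against 1.80, 1.79 and 1.84 in SvGRP at 0 mM. In WT it was -1.08, -0.75 and -0.64 at 150 mM, against 1.55, 1.44 and 1.50 at 0 mM. It was 3.73-fold lower in SvGRP (-1.90 ± 0.27, adjusted p = 0.00016) and 5.00-fold lower in WT (-2.32 ± 0.27, adjusted p = 5.98e-05), with slide-fitted changes of -1.93 and -2.58. SAUR73, the single tested gene among 5 loci of the SAUR26 group on chromosome 3, had fitted changes of -1.91 in SvGRP and -2.04 in WT. At 150 mM, 2 SvGRP arrays and 1 WT array were below the dim limit. With these arrays at their limits the changes were -1.87 and -1.79. Its second probe gave -1.11 in SvGRP (adjusted p = 0.0064) and -0.58 in WT, where it was not called (adjusted p = 0.1). The probes also differed between genotypes. The second was higher in SvGRP than in WT by 1.49 at 0 mM (adjusted p = 0.0072) and 0.96 at 150 mM (adjusted p = 0.034). The first gave -0.27 and -0.14 and was not called.

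SAUR15, long used as a reporter of rapid auxin induction, lies with SAUR13, SAUR14 and SAUR16 on chromosome 4, and all 4 were lower under salt in both genotypes. SAUR15 was at -2.10, -2.73 and -3.15 in SvGRP at 150 mM, against -0.83, -0.96 and -0.72 in SvGRP at 0 mM. In WT its level was -3.28, -3.24 and -3.09 at 150 mM, against -0.84, -1.40 and -1.13 at 0 mM. The salt arrays lay below all control arrays, with changes of -1.82 ± 0.23 in SvGRP (adjusted p = 6.9e-05) and -2.08 ± 0.23 in WT (adjusted p = 4.34e-05). The other 3 genes changed by -1.47 to -0.78 in SvGRP and by -1.65 to -0.82 in WT. SAUR14 changed least of the 4 in both genotypes. SAUR16, induced by light in cotyledons, changed by -1.20 in SvGRP and -1.48 in WT.

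Outside the tandem groups, SAUR46 and SAUR17 had the largest falls in both genotypes. SAUR46 was at -3.29, -3.96 and -4.99 in SvGRP at 150 mM, against -1.45, -1.52 and -1.13 in SvGRP at 0 mM. The WT arrays were at -5.54, -4.80 and -3.54 at 150 mM, against -1.18, -1.22 and -0.65 at 0 mM. The salt arrays were widely spread in each genotype but stayed below all control arrays. The changes were -2.71 ± 0.51 in SvGRP (adjusted p = 0.000931) and -3.61 ± 0.51 in WT (adjusted p = 0.000188).

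SAUR17, which is abundant in the apical hook of dark-grown Arabidopsis seedlings, was at -6.47, -7.01 and -7.62 in SvGRP at 150 mM, against -4.65, -4.38 and -4.33 in SvGRP at 0 mM. The WT levels were -8.66, -6.94 and -6.82 at 150 mM, against -5.22, -4.99 and -4.84 at 0 mM. It was 5.98-fold lower in SvGRP and at least 4.36-fold lower in WT, where 1 array at 150 mM was below the dim limit, and the low WT value of replicate 1 came from slide 1. When slide was fitted, its change was -2.70 in SvGRP and -3.64 in WT. SAUR10, which auxin and brassinosteroid induce, changed by -2.21 in SvGRP and -2.01 in WT. SAUR55, SAUR56, SAUR44, SAUR60, SAUR57, SAUR25 and SAUR11 were also lower in both, by -2.56 to -1.29 in SvGRP and by -2.02 to -1.34 in WT. The -1.34 was that of SAUR11, and was -1.08 with its 2 dim WT arrays at 150 mM set to their limits. SAUR31 and SAUR32, a gene of apical hook development, were lower by less than 1 log2 unit in both.

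The 9 genes called higher under salt in both genotypes were SAUR41, SAUR43, SAUR35, SAUR69, SAUR71, SAUR72, SAUR74, SAUR51 and SAUR59. SAUR41, SAUR71 and SAUR72 belong with SAUR40 to a subfamily described in Arabidopsis as induced by abscisic acid, and SAUR40 was not called in either genotype (-0.58 in SvGRP and 0.23 in WT).

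SAUR41 had the largest rise in WT. It was at -1.09, -0.36 and -0.20 in SvGRP at 150 mM, against -3.16, -3.19 and -3.30 in SvGRP at 0 mM. In WT it was at -0.71, -0.82 and -0.79 at 150 mM, against -3.34, -3.74 and -3.79 at 0 mM. It was 6.35-fold higher in SvGRP (2.67 ± 0.20, adjusted p = 2.67e-06) and 7.22-fold higher in WT (2.85 ± 0.20, adjusted p = 3.65e-06), without overlap, and the slide-fitted changes were 2.75 and 2.92. SAUR35 was 3.55-fold higher in SvGRP and 3.46-fold higher in WT. Its arrays lay at -1.73, -1.53 and -0.92 in SvGRP at 150 mM, against -3.23, -3.10 and -3.35 in SvGRP at 0 mM. In WT they lay at -1.43, -1.48 and -1.74 at 150 mM, against -3.41, -3.28 and -3.31 at 0 mM, so that salt and control did not overlap in either genotype.

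SAUR71 was at -0.30, -0.19 and -0.25 in SvGRP at 150 mM, against -1.41, -1.26 and -1.27 in SvGRP at 0 mM. In WT its level was 0.06, -0.15 and -0.26 at 150 mM, against -2.27, -2.00 and -1.69 at 0 mM. Salt raised it by 1.07 ± 0.13 in SvGRP (adjusted p = 5.67e-05) and by 1.87 ± 0.13 in WT (adjusted p = 3.55e-06). The 2 genotypes reached overlapping levels at 150 mM from different levels at 0 mM. SAUR69 changed by 1.25 in SvGRP and by 1.98 in WT. SAUR72, SAUR74, SAUR51 and SAUR59 changed by 0.69 to 1.36 in SvGRP and by 0.63 to 0.78 in WT.

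SAUR43 was near the dim limit at 0 mM. It was at -6.44, -5.80 and -5.89 in SvGRP at 150 mM, against -8.27, -7.22 and -8.75 in SvGRP at 0 mM. The WT arrays were at -7.19, -5.06 and -6.71 at 150 mM, against -8.95, -8.89 and -8.67 at 0 mM, where all 3 arrays were below the limit. Of the SvGRP arrays at 0 mM 2 were below it, and SAUR43 was at least 2.97-fold higher in SvGRP (fitted change 2.03, adjusted p = 0.00607) and at least 3.24-fold higher in WT (adjusted p = 0.00206). Within slide 1 the WT change was 1.64 and was not called (adjusted p = 0.0579).

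**Figure D3:**
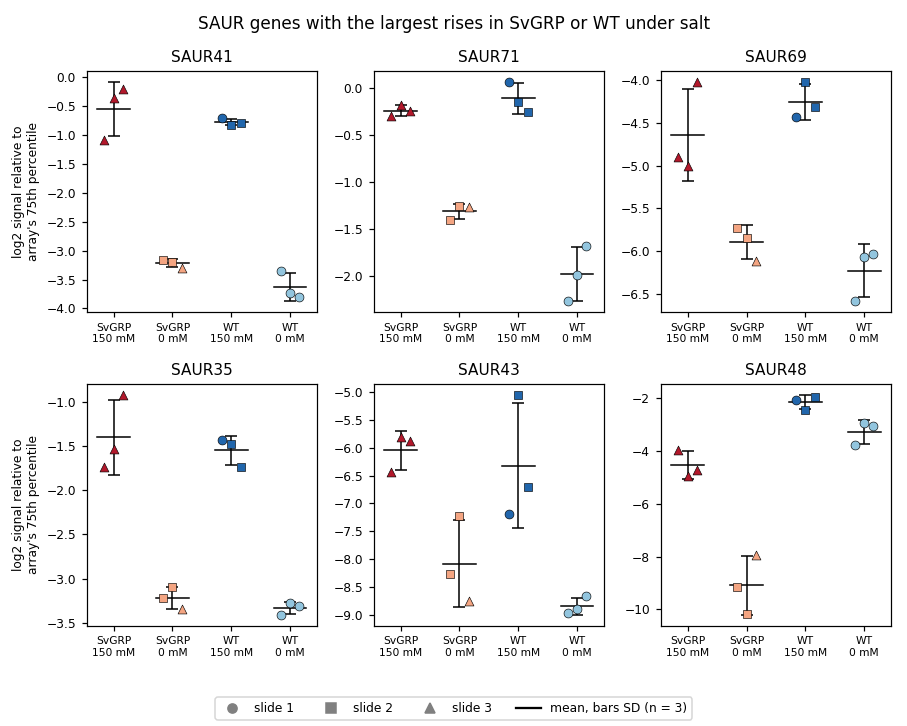
Level (log2 signal relative to the array's 75th percentile, vertical axes with their own ranges) of the 6 genes that were among the 4 largest rises under salt in SvGRP or in WT, in the 4 groups. Points are arrays, shapes are slides, and lines with bars are means and SD (n = 3): SAUR41 and SAUR35 reach similar levels in both genotypes, while SAUR48 is far lower in SvGRP at 0 mM than in any other group.

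The other called genes passed the test in a single genotype, 8 of the 61 in SvGRP and 4 in WT. Over all 26794 genes tested, 4208 were called in SvGRP alone and 2713 in WT alone. SAUR53, SAUR58, SAUR78, SAUR7, SAUR6, SAUR37 and SAUR70 were called lower in SvGRP alone, by -1.20 to -0.35, and SAUR48 was called higher in SvGRP alone. The -1.20 was that of SAUR58, and was -0.85 with its 2 dim SvGRP arrays at 150 mM set to their limits. In WT alone SAUR8, SAUR38 and SAUR76 were called higher, by 0.23 to 1.47, and SAUR33 was called lower, at -0.88. Among these genes the salt response itself differed between genotypes by the interaction test for SAUR48, SAUR6 and SAUR76, but not with slide in the fit (adjusted p of 0.28, 0.202 and 0.492), and for the others a difference was not shown. When slide was fitted, the SvGRP calls of SAUR53, SAUR58 and SAUR37 were lost, as were the WT calls of SAUR8, SAUR38 and SAUR33. The other single-genotype calls were kept. The remaining 10 genes, SAUR77, SAUR54, SAUR52, SAUR40, SAUR12, SAUR42, SAUR79, SAUR34, SAUR49 and SAUR30, were called in neither genotype. Of the 61 genes, 8 had more than 1 probe past the filter, and 0 had probes called in opposite directions in either salt comparison.

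At 150 mM NaCl, 14 SAUR genes were called lower in SvGRP than in WT and 6 higher, or 23.0% and 9.84% of the family, against a background of 18.7% lower and 10.2% higher (28.9% in either). These shares lay near the background, and the median difference was -0.03, beside -0.02 over all genes. With slide in the fit 2 genes were called, SAUR3 and SAUR48, both lower in SvGRP. That fit links the genotypes only through SvGRP replicate 3 at 0 mM and the arrays of slide 2. Leaving out 1 array in turn gave 12 to 16 lower genes and 1 to 12 higher genes.

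SAUR3 had the largest difference at 150 mM. Its level was -5.69, -6.40 and -6.40 in SvGRP at 150 mM, against -3.73, -3.17 and -3.66 in WT at 150 mM. At 0 mM it was -3.11, -3.11 and -2.95 in SvGRP, against -2.29, -2.18 and -2.22 in WT. The SvGRP arrays lay below all WT arrays at both NaCl levels. SAUR3 was 6.26-fold lower in SvGRP at 150 mM (-2.65 ± 0.20, adjusted p = 4.01e-05), and the difference was -2.91 with slide in the fit (adjusted p = 0.0217). At 0 mM the difference was -0.83 ± 0.20 (adjusted p = 0.0168). That call was lost when slide was fitted (-1.19, adjusted p = 0.205), as it was without SvGRP replicate 1 or 2 at 0 mM (highest adjusted p = 0.0563).

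SAUR3 lies in a second tandem group on chromosome 4 with 7 loci, SAUR49, SAUR50, SAUR1, SAUR2, SAUR3, SAUR4 and SAUR5, of which all but SAUR2 were tested. Under salt 5 of the 6 were lower in each genotype, with median changes of -1.21 in SvGRP and -0.55 in WT. SAUR49 was the exception, at 0.10 in SvGRP and 0.28 in WT, and was called in neither. At 150 mM, SAUR1, SAUR3, SAUR4 and SAUR5 were called lower in SvGRP than in WT, and the median difference of the 6 was -0.80.

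SAUR4 was at -3.54, -4.26 and -3.80 in SvGRP at 150 mM, against -3.12, -2.90 and -2.95 in WT at 150 mM, a difference of -0.88 ± 0.16 (adjusted p = 0.00335). SAUR5 was at -3.41, -3.65 and -3.60 in SvGRP, against -2.90, -2.71 and -2.90 in WT, a difference of -0.72 ± 0.075 (adjusted p = 0.000243). SAUR1 was at -2.45, -2.43 and -3.43 in SvGRP, against -2.19, -1.72 and -1.74 in WT, a difference of -0.89 ± 0.25 (adjusted p = 0.0268). The genotypes did not overlap at 150 mM for these 3 genes. When slide was fitted, the differences of SAUR4, SAUR5 and SAUR1 were -1.05, -0.68 and -1.42, with adjusted p of 0.164, 0.0873 and 0.196. SAUR50, a gene induced by light in cotyledons, overlapped between genotypes at 150 mM, at 0.55, 0.08 and -0.12 in SvGRP, against 0.08, 0.38 and 0.38 in WT.

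**Figure D4:**
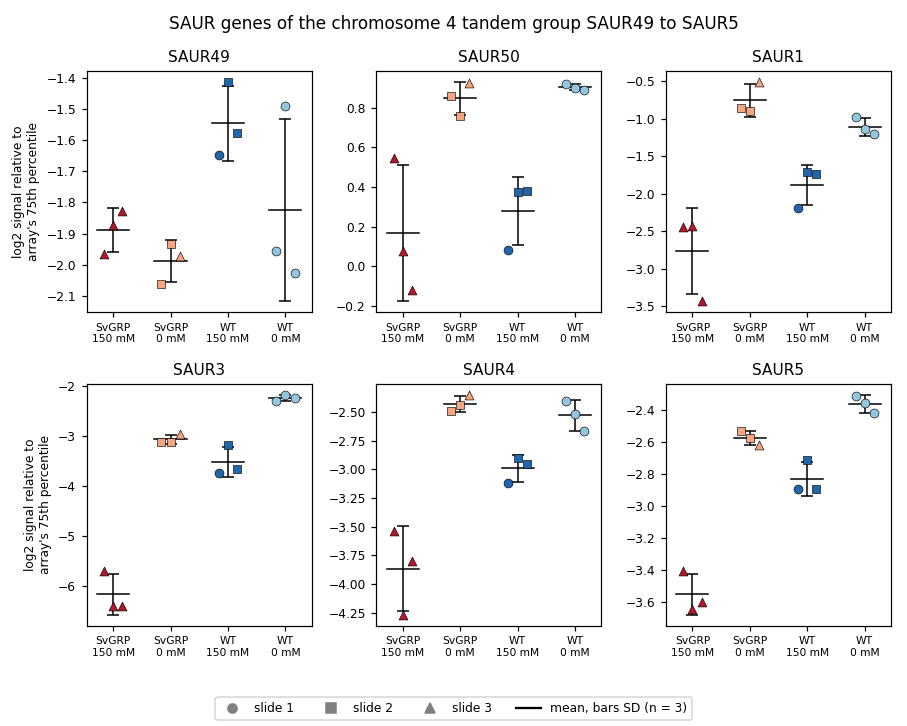
Level (log2 signal relative to the array's 75th percentile, vertical axes with their own ranges) of the 6 tested genes of the SAUR49 to SAUR5 group on chromosome 4 in the 4 groups. Points are arrays, shapes are slides, and lines with bars are means and SD (n = 3): in SAUR1, SAUR3, SAUR4 and SAUR5 the SvGRP arrays at 150 mM lie below all WT arrays at 150 mM, and in SAUR50 they overlap.

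Other genes lower in SvGRP at 150 mM included SAUR42 and SAUR58, both dim. SAUR42 was at -8.42, -7.45 and -6.68 in SvGRP at 150 mM, against -4.86, -5.53 and -5.48 in WT at 150 mM, and 1 of the SvGRP arrays was below the dim limit, so it was at least 4.23-fold lower (adjusted p = 0.0159). SAUR58 was at -8.32, -8.66 and -7.15 in SvGRP, against -6.98, -6.68 and -6.09 in WT, and 2 of the SvGRP arrays were below the dim limit, so it was at least 2.16-fold lower (adjusted p = 0.0167). Neither overlapped between genotypes at 150 mM, and fitting slide ended both calls (adjusted p = 0.238 and 0.478). SAUR58 was not called without SvGRP replicate 2 or WT replicate 3 at 150 mM (highest adjusted p = 0.0572). SAUR37, SAUR78, SAUR31, SAUR76, SAUR55, SAUR6 and SAUR52 were also called lower, by -1.36 to -0.35.

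The genes called higher in SvGRP at 150 mM were AT1G29490, SAUR61, SAUR66, SAUR74, SAUR16 and SAUR51, and the first 3 belong to the chromosome 1 group. SAUR61 was at -3.38, -4.01 and -4.42 in SvGRP at 150 mM, against -4.82, -4.50 and -4.50 in WT at 150 mM, a difference of 0.67 ± 0.21 (adjusted p = 0.0402). SAUR66 was at 0.99, 0.34 and 0.02 in SvGRP, against -0.41, 0.01 and -0.11 in WT, a difference of 0.62 ± 0.21 (adjusted p = 0.0498). In both genes SvGRP replicate 1 was well above the other SvGRP arrays, and the lowest SvGRP array lay just above the highest WT array.

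The difference of AT1G29490 was at least 1.22-fold (adjusted p = 0.035), because WT was below the dim limit, and its second probe gave -0.82 (adjusted p = 0.053). SAUR74 differed by 0.62 ± 0.18 (adjusted p = 0.0255). The calls of SAUR61 and SAUR66 were each lost in 11 of the 12 omissions of 1 array, and that of AT1G29490 in 2. The highest adjusted p was 0.104 for AT1G29490, 0.114 for SAUR61 and 0.14 for SAUR66, each without WT replicate 1 at 150 mM, and 0.0784 for SAUR74 without WT replicate 3 at 150 mM. With slide in the fit none of the 6 was called, at adjusted p of 0.314 to 0.767. SAUR15 differed by 0.54 (adjusted p = 0.106) and SAUR68 by 0.30 (adjusted p = 0.319). Both were called without SvGRP replicate 3 at 150 mM, the lowest SvGRP array at 150 mM in both genes.

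At 0 mM NaCl, 2 SAUR genes were called higher in SvGRP than in WT and 3 lower, or 3.28% and 4.92% of the family, against a background of 10.4% higher and 10.8% lower (21.2% in either). The median difference was 0.20, beside 0.03 over all genes, and with slide in the fit it was -0.01 and 1 gene, SAUR48, was called. Leaving out 1 array gave 1 to 9 higher and 1 to 4 lower genes.

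SAUR48 was the gene with the largest difference between genotypes at 0 mM. Its level was -9.16, -10.15 and -7.93 in SvGRP at 0 mM, against -3.80, -2.96 and -3.08 in WT at 0 mM. At 150 mM it was -3.96, -4.95 and -4.72 in SvGRP, against -2.09, -2.47 and -1.96 in WT. The genotypes did not overlap at either NaCl level, 2 of the 3 SvGRP arrays at 0 mM were below the dim limit, and the third, at -7.93, lay at its limit of -7.94. With the dim arrays set to their limits, SAUR48 was at least 21.7-fold lower in SvGRP at 0 mM (fitted difference -5.80, adjusted p = 0.000108). It was 5.17-fold lower in SvGRP at 150 mM (-2.37 ± 0.49, adjusted p = 0.00681). When slide was fitted, the differences were -6.25 (adjusted p = 0.00949) and -4.05 (adjusted p = 0.0475). Salt raised SAUR48 at least 9.07-fold in SvGRP (fitted change 4.54, adjusted p = 2.47e-05, and 3.39 within slide 3, adjusted p = 0.00113). In WT its change of 1.11 ± 0.49 was not called (adjusted p = 0.0737), although the arrays at 150 and 0 mM did not overlap.

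SAUR71, of the SAUR41 subfamily, was higher in SvGRP at 0 mM by 0.67 ± 0.13 (adjusted p = 0.00791). Its second probe gave 0.47 at 0 mM and was not called (adjusted p = 0.071). SAUR11 was at -5.58, -5.83 and -5.80 in SvGRP at 0 mM, against -6.46, -6.53 and -6.38 in WT at 0 mM, a difference of 0.72 ± 0.19 (adjusted p = 0.0256). SAUR31 was at -1.42, -1.37 and -1.41 in SvGRP, against -1.06, -0.91 and -1.02 in WT, a difference of -0.40 ± 0.09 (adjusted p = 0.0146). The genotypes did not overlap for these genes at 0 mM, and fitting slide ended the calls of SAUR71, SAUR11 and SAUR31 (adjusted p = 0.154, 0.767 and 0.124). SAUR11 missed the threshold without any 1 of the 6 arrays compared (highest adjusted p = 0.0876), and SAUR31 without SvGRP replicate 1 at 0 mM (adjusted p = 0.051). SAUR15 and SAUR68 differed by 0.29 (adjusted p = 0.407) and 0.0426 (adjusted p = 0.909), and SAUR68 by -0.32 with slide fitted.

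The test of the difference between the 2 salt responses called 8 SAUR genes, 7 of them with a more negative response in SvGRP. The shares were 11.5% of the family with a more negative and 1.64% with a more positive response, against a background of 6.45% and 2.52% (8.96% in either). SAUR48 had the more positive response, by a fitted 3.43 (adjusted p = 0.0203), or at least 2.07 with the dim arrays at their limits. SAUR3 fell further in SvGRP, by -1.82 ± 0.28 (adjusted p = 0.00791), as did its neighbours SAUR4 (-0.97, adjusted p = 0.0292) and SAUR5 (-0.51, adjusted p = 0.0226). SAUR1 of the same group gave -1.24 and was not called (adjusted p = 0.0595). SAUR55 fell further in SvGRP by -0.68 (adjusted p = 0.0496), and SAUR6 differed by -0.63 (adjusted p = 0.0165).

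SAUR71 rose less in SvGRP, by -0.80 (adjusted p = 0.0314). On its second probe the difference in response was -0.62 and was not called (adjusted p = 0.13). SAUR76, one of the SAUR genes induced by ethylene, was at -2.00, -2.28 and -1.87 in SvGRP at 150 mM, against -2.18, -1.77 and -2.19 in SvGRP at 0 mM. The WT levels were -1.51, -1.28 and -1.51 at 150 mM, against -2.22, -2.12 and -2.15 at 0 mM. The SvGRP groups overlapped and the WT groups did not, and the responses differed by -0.74 (adjusted p = 0.0402). Once slide was fitted, 0 of the 61 genes had a called interaction. The lowest slide-fitted adjusted p among the 8 was 0.145, for SAUR3, whose difference in response was then -1.72. Of the 12 omissions of 1 array, SAUR48 missed the threshold in 2, SAUR4 and SAUR71 in 7 each, and SAUR76 in 8. Their highest adjusted p were 0.0548, 0.0725, 0.077 and 0.0938. SAUR3 missed it in none (highest adjusted p = 0.0256). Such omissions are not given gene by gene for SAUR5, SAUR6 and SAUR55. Over the omissions the count of genes with a called more negative response ran from 2 to 11.

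**Figure D5:**
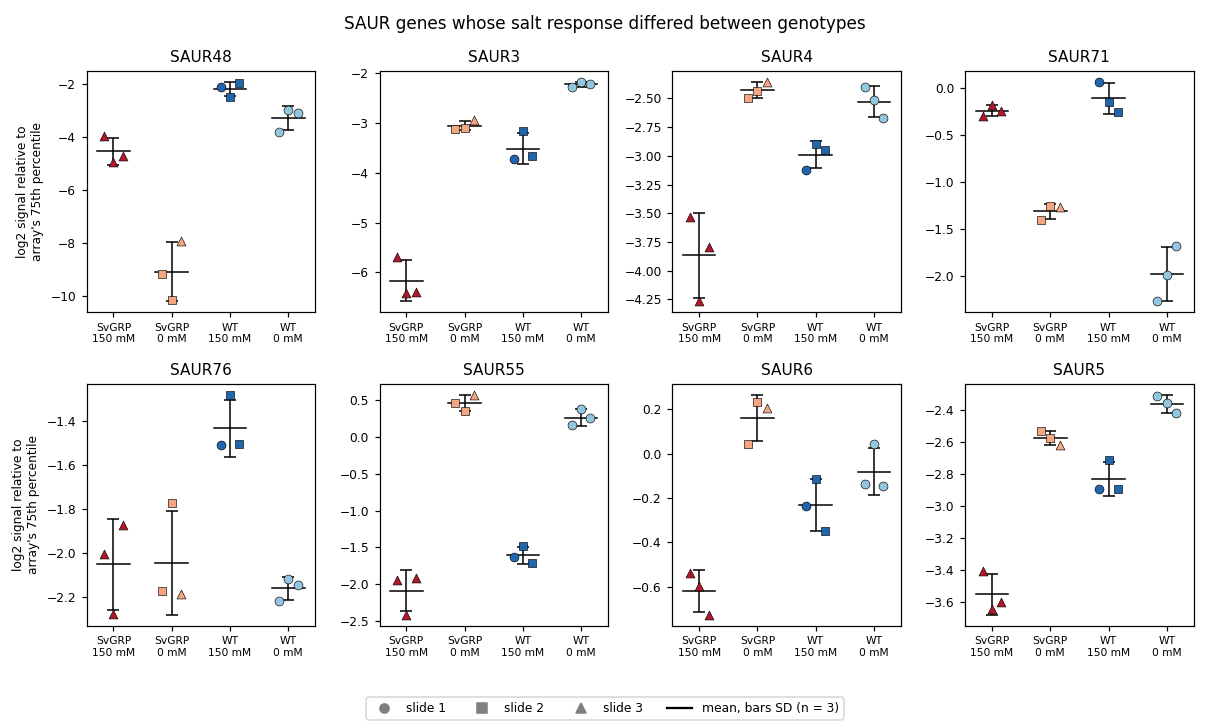
Level (log2 signal relative to the array's 75th percentile, vertical axes with their own ranges) of the 8 SAUR genes whose salt response differed between SvGRP and WT without slide in the fit, in the 4 groups. Points are arrays, shapes are slides, and lines with bars are means and SD (n = 3): SAUR3, SAUR4, SAUR5 and SAUR6 drop further in SvGRP at 150 mM than in WT, and SAUR48 is lowest in SvGRP at 0 mM.

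The genes on which SAUR proteins act changed in both directions under salt. Their counts are read beside the shares over all genes, 31.0% higher and 37.8% lower in SvGRP, and 33.1% higher and 30.2% lower in WT. Of 9 PP2C.D phosphatases, 5 were higher and 2 lower in SvGRP, and 5 higher and 3 lower in WT. With slide fitted the SvGRP counts were 5 and 2, and the WT counts 2 higher and 3 lower. AT5G02760 fell by far the most among them, by -2.67 ± 0.33 in SvGRP (adjusted p = 5.56e-05) and -3.05 ± 0.33 in WT (adjusted p = 3.57e-05), while AT5G06750 rose by 0.67 and 0.82.

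Of 10 tested plasma membrane proton pumps of 11 listed, 4 were higher and 3 lower in SvGRP, and 3 higher and 2 lower in WT. Fitting slide left 1 higher and 2 lower in SvGRP, and 2 higher and 0 lower in WT. HA11 rose by 0.93 in SvGRP and 1.20 in WT, and was called in both with slide fitted. HA2, a main pump of seedlings, was lower by -0.80 in SvGRP and by -0.34 in WT. The WT call of HA2 was lost with slide fitted (adjusted p = 0.0628), and its value turned to 0.09 under the scaling to spike-in probes.

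Of 23 tested Aux/IAA repressors, themselves auxin-induced, 16 were lower and 2 higher under salt in SvGRP, and 15 lower and 2 higher in WT. Their medians were -0.61 and -0.53, beside -0.07 and 0.04 over all genes, and slide-fitted counts were 15 lower and 1 higher in SvGRP and 13 lower and 1 higher in WT. IAA34 fell by -3.18 in SvGRP and -3.58 in WT, and IAA29 fell by -3.04 in SvGRP and -4.19 in WT. At 150 mM, 9 Aux/IAA genes were called higher in SvGRP than in WT and 4 lower, against 10.2% higher and 18.7% lower over all genes, and 0 were called with slide fitted.

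Of 5 tested TIR1/AFB auxin receptors 4 were lower in each genotype, and 3 in SvGRP and 2 in WT with slide fitted. GRH1 (AFB1) changed by -0.68 in SvGRP and by -0.39 in WT, where its value was 0.04 under the scaling to spike-in probes. Of 16 tested ARF factors 6 were lower in SvGRP, near the share over all genes, and 3 were higher, below the share over all genes. In WT 9 were lower and 3 higher. Slide-fitted ARF counts were 4 lower and 3 higher in SvGRP, and 5 lower and 1 higher in WT. Of 4 tested PIN exporters 2, PIN7 and PIN3, were called lower in each genotype. The SvGRP call of PIN3 was lost with slide fitted (adjusted p = 0.114) and in 3 omissions of 1 array (highest adjusted p = 0.0619, without SvGRP replicate 3 at 150 mM).

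Of 11 TAA1, TAR2 and YUC genes of auxin synthesis, 6 were lower and 3 higher in SvGRP, and 6 lower and 2 higher in WT. With slide fitted, 5 were lower and 0 higher in each genotype. YUC2 and YUC8, which acts in temperature- and shade-driven growth, fell by -1.80 and -1.57 in SvGRP and by -1.69 and -1.46 in WT. Of 7 tested group II GH3 genes, whose enzymes conjugate auxin to amino acids, 3 were higher and 4 lower in each genotype, and with slide fitted 3 and 4 in SvGRP and 2 and 4 in WT. GH3.3 rose by 1.51 in SvGRP and 1.37 in WT, and GH3.9 fell by -1.71 and -1.41.

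Of 7 growth regulators of the PIF and BZR families, 1 was higher and 3 lower in SvGRP, and 1 higher and 2 lower in WT. PIF3 rose by 0.92 in SvGRP and 0.49 in WT, also with slide fitted. PIF4 changed by -0.42 in SvGRP and -0.51 in WT, and PIL6 (PIF5) by -0.25 and -0.38, with PIL6 in WT at 0.04 under the scaling to spike-in probes. With slide fitted the SvGRP calls of PIF4 and PIL6 were lost (adjusted p = 0.111 and 0.0891).

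Markers of organs moved with the groups. The summed signal of 5 shoot markers, relative to the 75th percentile, was 184 to 202 in SvGRP at 150 mM, 216 to 227 in SvGRP at 0 mM, 194 to 198 in WT at 150 mM and 250 to 284 in WT at 0 mM. The bright probes of CAB1 and RBCS1A made up nearly all of this sum. Their mean levels in WT at 0 mM were 7.16 and 6.95, against 0.17 for AFO, -1.78 for FMA and -3.18 for SPCH. Taken gene by gene, salt lowered 4 of the 5 shoot markers in SvGRP and 5 in WT, and 3 and 5 with slide fitted. The sum of 4 tested root markers of 5 listed was 1.17 to 1.38 in SvGRP at 150 mM, 1.70 to 2.04 in SvGRP at 0 mM, 1.89 to 2.10 in WT at 150 mM and 1.41 to 1.93 in WT at 0 mM. SCR weighed most in this sum, with a mean level in SvGRP at 150 mM of -0.10, against -2.28 for EIR1 (PIN2), -3.71 for SHV2 (COBL9) and -3.82 for EXPA7. Salt lowered 2 of these 4 genes in SvGRP and 0 in WT. At 150 mM 3 of the 4 were called lower in SvGRP than in WT, and SCR was not (mean -0.10 against -0.28). The root hair genes EXPA7 and SHV2 differed by -2.64 and -2.48, and EIR1 by -0.69. Neither root hair gene was called with slide fitted (adjusted p = 0.318 and 0.233). The sum of 2 seed storage markers was 0.0699 to 0.0942 in SvGRP at 150 mM, 0.0275 to 0.0407 in SvGRP at 0 mM, 0.0181 to 0.0264 in WT at 150 mM and 0.00855 to 0.0244 in WT at 0 mM. The part of these organ markers in the SAUR results was not tested.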

How the data were processed

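Per the labels, Cy3-labelled RNA of 12 samples was hybridised, and Agilent Feature Extraction (version not given in the sources used here) read the arrays. The deposited array files give an intensity per probe, which is the linear processed signal before any scaling across arrays, without flag, mean or background columns. A series table deposited by the authors has log2 values that equalled probe-centred log2 signal after subtraction of the array's 75th percentile, within 0.000212. All main values come from the intensities; the log2 table was an alternative.

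Of 43603 non-control probes, 34344 were listed with 1 gene and 9259 were not listed. Names came from the RefSeq gene table of TAIR10.1, used only for names and gene order. The SAUR name was looked for in the symbol and in the synonym fields. The symbol field alone leaves 2 tested genes, so the wider reading was taken. The intensity was taken as log2 minus the array's 75th percentile. A probe was kept if, in at least 1 group, it exceeded the 20th percentile of every array, which left 35454 probes, and the brightest probe stood for its gene (26794 genes or unnamed probes). Where arrays of the dimmer group were below that limit, they were set to it and the fold is a bound.

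Group means over the 12 arrays were fitted in limma 3.58.1 (R 4.3.3), with 8 residual and 1.74 prior degrees of freedom, and 5 contrasts were tested. The code was tested on simulated data. The number of arrays limits the precision. Named genes were the 4 largest called rises and falls without overlap in each comparison, tandem groups, and up to 2 called genes per direction of each pathway list; further members are given with values for completeness. The members and lists were chosen with earlier results of these data known. Alternatives were other scalings (quantile, the array's median, 8 E1A spike-in probes, the series table), other dim filters, all probes, blocks for slide (fixed or random) and for replicate number, omission of single arrays, a 2-fold threshold, a fit of the compared groups alone, and a trended variance. Normexp background correction was not run, for lack of its columns. The labels do not say whether the replicate numbers pair the samples. Same-numbered arrays deviated from their group means with correlations of -0.183 to 0.215, and 2 of 18 pairs exceeded 0.1. Because slides are mixed within groups, these correlations cannot decide whether samples were paired.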

Additional observations from a re-analysis of the deposited data

Results flagged for a closer look

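The salt response of 8 SAUR genes differed between SvGRP and WT by limma's interaction test (SvGRP minus WT, log2). The more positive response in SvGRP was that of SAUR48, at a fitted 3.43, or at least 2.07 with the SvGRP arrays at 0 mM that lay below the dim limit set to it. More negative responses were those of SAUR3 at -1.82, SAUR4 at -0.97, SAUR71 at -0.80, SAUR76 at -0.74, SAUR55 at -0.68, SAUR6 at -0.63 and SAUR5 at -0.51. SAUR3, SAUR4 and SAUR5 are neighbours on chromosome 4. A second probe for SAUR71 gave -0.62 and was not called (adjusted p = 0.13). With slide in the fit all 8 kept their sign and 0 were called. Slide was only partly separable from these differences. With slide fitted, the WT response rested on WT replicate 1 at 150 mM, the single array of its group on slide 1. The SvGRP response rested on SvGRP replicate 3 at 0 mM, the single array of its group on slide 3.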

How the results depend on the processing

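No called change of a named SAUR gene turned its sign under the alternatives run. Uncalled differences did: that of SAUR68 at 0 mM was -0.318 with slide as a fixed term, and ranged from -0.031 to 0.0937 when 1 array was left out, and the interactions of SAUR68 and SAUR15 ranged from -0.000959 to 0.529 and from -0.0254 to 0.504. Scaling to the E1A spike-in probes moved the median of all genes to 0.16 (salt in SvGRP), 0.46 (salt in WT), 0.14 (150 mM), 0.39 (0 mM) and -0.24 (interaction), and the SAUR medians to -0.56, -0.0346, 0.13, 0.56 and -0.38. It gave 20 higher genes under salt in WT, 30 higher at 0 mM and 14 lower in the interaction. It turned salt in SvGRP of AT3G51370 to 0.0519, salt in WT of HA2 to 0.0876, HA5 to 0.24, GRH1 to 0.0417, AFB2 to 0.21 and PIL6 to 0.0434, and the 0 mM difference of CAB1 to 0.0708 and of RBCS1A to 0.077. Quantile normalization gave 0.0395 for CAB1, 1 higher gene at 0 mM, and an interaction median of 0.00104. With slide as a fixed term the higher and lower genes were 0 and 2 at 150 mM, 0 and 1 at 0 mM, and 0 and 0 in the interaction, and the medians were -0.0146 at 0 mM and 0.0381 in the interaction. As a random block (correlation -0.165) it gave 12 and 5 at 0 mM and 2 and 18 in the interaction. A 2-fold threshold left 6 higher genes under salt in WT, 1 higher and 5 lower at 150 mM, 0 and 1 at 0 mM, and 1 lower in the interaction. Fitting only the groups compared gave 1 higher gene at 150 mM and 12 and 7 at 0 mM. No dim filter gave 3 higher genes at 150 mM and 5 lower at 0 mM, and the strict filter 1 higher at 0 mM and 0 in the interaction.

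With the replicate block, 2 genes were higher at 150 mM, 1 was higher at 0 mM and 3 were lower in the interaction. The block moved no other SAUR count by over 1.5 times. In the labels same-numbered arrays share only that number, and 2 of 12 arrays correlated best with their own number.

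Leaving out 1 array gave 10 to 12 higher and 35 to 38 lower genes under salt in SvGRP (median -0.87 to -0.73), and 11 to 13 and 28 to 32 in WT (median -0.51 to -0.40). At 150 mM it gave 1 (without WT replicate 3) to 12 (without SvGRP replicate 3) higher and 12 to 16 lower (median -0.10 to 0.06). At 0 mM it gave 1 to 9 higher, with 9 without SvGRP replicate 1 at 150 mM, and 1 to 4 lower, with 1 without SvGRP replicate 1 at 0 mM (median 0.16 to 0.20). In the interaction it gave 0 to 1 higher and 2 to 11 lower, with 11 without SvGRP replicate 1 at 150 mM (median -0.32 to -0.0197).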
